A study of Mus musculus with 120 samples.

Results

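The 9 metabolic nuclear receptors are a group of genes taken by name: the fatty acid sensors Ppara and Ppard, their shared partners Rxra and Rxrb, the oxysterol receptor Nr1h3 (LXRα), the bile acid receptor Nr1h4 (FXR), the xenobiotic receptors Nr1i2 (PXR) and Nr1i3 (CAR), and the atypical receptor Nr0b2 (SHP). All 9 of the 9 listed were present among the 12252 genes of the tables, with 32 annotated transcripts kept by the authors among 41105. Nuclear receptors are transcription factors that a small lipophilic ligand switches on. Most of the metabolic ones bind DNA as a heterodimer with RXR and, in liver, set the transcription of genes for fatty acid oxidation, sterol and bile acid handling and drug clearance. SHP lacks a DNA-binding domain, is itself induced by FXR, and represses the activity of other receptors. Cryptochromes, the products of Cry1 and Cry2, are the repressor arm of the circadian clock.

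The study fractionated mouse livers into nuclei and cytoplasm and sequenced RNA from 12 livers labelled Cry1-/- Cry2-/- (KO) and 12 wild-type (WT) livers, 2 per genotype at each of 6 times, ZT0, 4, 8, 12, 16 and 20 (Zeitgeber time, hours after lights on). Each liver label carried 5 RNA populations, which gave 120 libraries: nuclear total (NT), nuclear polyadenylated (NA), cytoplasmic total (CT), cytoplasmic polyadenylated (CA) and unfractionated total (UT) RNA. WT animals were male C57BL/6 mice (C57/BL6J in the study's methods) of 8 to 12 weeks, kept in 12 h of light and 12 h of dark and fed only during the dark phase for 3 days before sampling. For KO animals the sources give the genotype and the liver as tissue, but not the age, sex, background or feeding, so housing, batch and genotype cannot be told apart. Nothing says that same-time KO livers came from separate animals, and p-values measure the spread between these samples only.

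Counts were split by the authors into pre-mRNA (I, introns and exons) and mRNA (E, exons only), and 6 measures are used here: nuclear total pre-mRNA (NTI), nuclear total mRNA (NTE), nuclear polyadenylated mRNA (NAE), cytoplasmic total mRNA (CTE), cytoplasmic polyadenylated mRNA (CAE) and unfractionated mRNA (UTE). Levels are CPM, counts scaled to a common library total, after scaling by trimmed mean factors (TMM), or the same per kilobase (RPKM) where genes are compared. The median NA library held 48.9 M assigned counts in KO and 55.1 M in WT (M, mega), and the median CA library 20.3 M in KO and 23 M in WT. In CT every KO library was deeper than every WT library, with 16.65 to 23.33 M in KO (median 19.3 M) and 7.07 to 15.26 M in WT (median 13.12 M). The lowest depth of all libraries was 7.07 M in a WT CT library. The summed level of 8 hepatocyte markers, from Alb to Hnf4a, was 56860 to 93140 CPM in KO and 29700 to 84940 CPM in WT CAE. The 7 macrophage markers summed to 184 to 408 CPM in KO and 182 to 890 CPM in WT CAE, so the tissue label held in both genotypes.

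Cry1 and Cry2 were lower in KO in CTE (log2 fold change of KO over WT -1.84 and -1.58), CAE (-1.38 and -1.06) and UTE (-1.12 and -1.32). Both were higher in KO in NTI (1.97 and 0.65) and NAE (1.5 and 0.58), and whole-gene counts do not separate a deleted part from the rest. Nr1d1, the clock repressor REV-ERBα, spanned 0.40 log2 units over the day in KO UTE and 6.60 in WT UTE, with an adjusted p for the difference in rhythm of 2.84e-05. The cytoplasmic libraries labelled WT ZT0 replicate 2 went against that pattern: Nr1d1 was at 25.9 CPM in CAE and 64.4 CPM in CTE there, against 0.70 and 2.35 CPM in replicate 1, while NAE and UTE of replicate 2 held 6.35 and 2.79 CPM. Results that change without those libraries are given both ways. In the cytoplasm WT ZT4 replicate 2 also stood apart. Ppard was at 18.04 CPM in CTE and 6.93 CPM in CAE there, against 4.58 and 2.74 CPM in replicate 1. In NTE replicates 1 and 2 of WT ZT4 held 24.5 and 23.5 CPM, and in UTE 21 and 22.4 CPM. Whether the cytoplasmic libraries of WT ZT0 and ZT4 replicate 2 were exchanged was not tested, nor was leaving out both together. WT ZT4 replicate 1 had the lowest mean correlation with the other WT libraries in each of the 5 populations (0.916 to 0.948). Among KO libraries, ZT20 replicate 1 stood apart in UT (0.935, next lowest 0.968) and ZT12 replicate 2 in CA (0.946, next lowest 0.966). KO ZT20 replicate 1 held 4.2 M pre-mRNA counts in UT, against 9.6 to 13.09 M in the other KO UT libraries.

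The levels of the 9 genes are compared first, per kilobase and as a description. In NAE, Nr1i3 was the highest in both genotypes, at 1886 ± 637 RPKM in KO and 777 ± 518 RPKM in WT (SD, n = 12 each). Its lowest library lay above the highest library of Nr1h4, the next gene, which averaged 211 ± 30.3 RPKM in KO and 186 ± 31.3 RPKM in WT. In CAE the leading genes were closer to each other. Nr1i3 was at 62.8 ± 17.4 RPKM in KO and 31.8 ± 6.06 RPKM in WT, Nr1h4 at 59.5 ± 8.16 RPKM in KO and 56.4 ± 11.1 RPKM in WT, and Nr1h3 at 43.4 ± 6.12 RPKM in KO and 59.5 ± 10 RPKM in WT. Nr1i3 ranked first in KO CAE and Nr1h3 in WT CAE, and in both genotypes the first 4 genes each overlapped with the next of them. Ppard was the lowest in CAE, at 0.93 ± 0.23 RPKM in KO and 1.27 ± 0.98 RPKM in WT, below every library of Rxrb in both genotypes.

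The first comparison asked how the level of each receptor, averaged over the day, differed between KO and WT livers. Nr1i3 was higher in KO in all 6 measures, Nr1i2 in 5 and Ppara in 3, and Ppard was lower in NTI, NTE and UTE. Of the 9 genes, 6 passed an adjusted p of 0.05 in NTI (4 higher, 2 lower), where 52.5% of all genes tested did (48.8% higher, 3.65% lower). With factors from pre-mRNA counts 6 passed again, but 3 were higher and 3 lower, as Ppara no longer passed and Rxra did. In NTE 8 passed (3 higher, 5 lower), against 48.2% of all genes (24.2% higher, 24% lower). In NAE 2 passed, both higher, against 17.1% (8.03% higher, 9.11% lower). In CTE 5 passed (4 higher, 1 lower), against 39.8% (18.9% higher, 20.9% lower), and in CAE 5 passed (4 higher, 1 lower), against 36% (17.2% higher, 18.8% lower). Library size scaling gave 6 in CAE, all higher, without Nr1h3 and with Nr1h4 and Nr0b2. In UTE 4 passed (1 higher, 3 lower), against 48.8% (22.6% higher, 26.2% lower). All 9 were measured above the count filter in every one of these fits. The median log2 fold change of the 9 was 0.68 in NTI, where all genes had a median of 0.34, and -0.29 in NTE, 0.04 in NAE, 0.16 in CTE, 0.32 in CAE and -0.14 in UTE, where the median of all genes was within 0.02 of 0. The NTI values are on factors from mRNA counts, and with factors from pre-mRNA counts the median of all genes was 0.00 and 50.6% of all calls were higher in KO, against 93%. Scaling by library size alone gave 33.6% higher in NTE, 69.9% in CTE and 90.3% in CAE, against 50.3%, 47.4% and 47.7%. In bulk RNA, fewer cells of a type and less RNA per cell cannot be told apart.

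**Figure D1:**
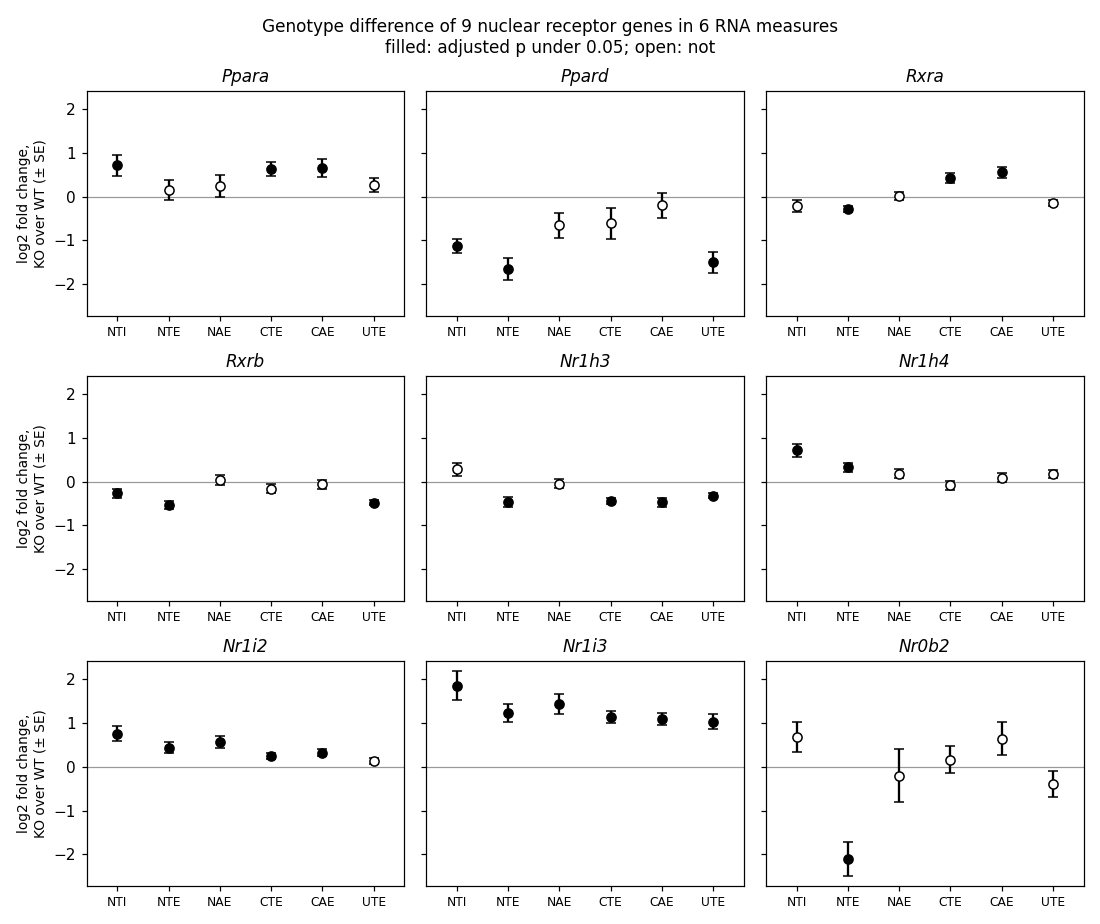
Log2 fold change of KO over WT (vertical axis, ± SE, 12 libraries per genotype) for each of the 9 genes in the 6 RNA measures (horizontal axis); filled points passed an adjusted p of 0.05. Nr1i3 lies above 0 in every measure, from 1.03 in UTE to 1.85 in NTI, and Ppard lies below 0, from -0.20 in CAE to -1.65 in NTE.

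Ppara (chr15:85734983-85802819, plus strand, GRCm38 as in all positions given here) encodes the receptor that turns on hepatic fatty acid oxidation in fasting. Its pre-mRNA was 1906 to 6107 CPM in KO (median 3787) and 1205 to 3854 CPM in WT (median 1753). The ranges overlapped, but 5 of 12 KO libraries lay above all WT libraries and 7 of 12 WT libraries below all KO libraries. The log2 fold change was 0.72 ± 0.24 (SE, adjusted p = 0.0154), and 0.38 (adjusted p = 0.185) with factors from pre-mRNA counts. In CAE Ppara was at 20.0 to 65.8 CPM in KO (median 43.4) and 10.01 to 64.1 CPM in WT (median 29.3), again with overlap. It was higher in KO in CAE, by 0.66 ± 0.20 on the log2 scale (adjusted p = 0.0141), and in CTE, by 0.63 ± 0.16 (adjusted p = 0.00425). In NAE (0.24, adjusted p = 0.567) and UTE (0.27, adjusted p = 0.155) the difference did not pass the test.

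Ppard (chr17:28232700-28301474, plus strand), the fatty acid receptor also found in most other tissues, moved the other way. Its UTE level was 6.05 to 9.25 CPM in KO (median 6.91) and 7.33 to 73.7 CPM in WT (median 18.7). Both KO livers lay below both WT livers at 6 of 6 times, and 7 of 12 KO libraries lay below all WT libraries, although the WT trough at ZT8 overlapped with the highest KO libraries. The log2 fold change was -1.50 ± 0.24 in UTE (adjusted p = 4.23e-05). In NTI Ppard was at 110 to 265 CPM in KO (median 151) and 162 to 749 CPM in WT (median 330), a log2 fold change of -1.13 ± 0.17 (adjusted p = 2.06e-05). NTE gave -1.65 ± 0.25 (adjusted p = 2.49e-05). In NAE and in both cytoplasmic measures the averaged level did not pass the test. The values were -0.66 ± 0.29 in NAE (adjusted p = 0.122), -0.62 ± 0.35 in CTE (adjusted p = 0.173) and -0.20 ± 0.29 in CAE (adjusted p = 0.608).

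Rxra (chr2:27676440-27762957, plus strand) encodes the main heterodimer partner in hepatocytes. In CAE it was at 225 to 326 CPM in KO (median 277) and 93.7 to 306 CPM in WT (median 186). The groups overlapped, with most WT libraries lower. On the log2 scale Rxra was higher in KO by 0.56 ± 0.12 in CAE (adjusted p = 0.00147) and 0.41 ± 0.11 in CTE (adjusted p = 0.00613). Without WT ZT0 replicate 2 these were 0.50 (adjusted p = 0.00217) and 0.34 (adjusted p = 0.0112). In NTE Rxra was lower in KO, at 221 to 309 CPM in KO (median 259) and 245 to 389 CPM in WT (median 329), a log2 fold change of -0.29 ± 0.07 (adjusted p = 0.00118). In NAE the log2 fold change was 0.01 (adjusted p = 0.932). In NTI it was -0.22 (adjusted p = 0.207), and -0.56 (adjusted p = 0.000766) with factors from pre-mRNA counts.

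Rxrb (chr17:34031812-34038399, plus strand) encodes a second partner. In UTE it was at 16.7 to 22.4 CPM in KO (median 20.7) and 23 to 35.7 CPM in WT (median 27.8). Every KO library lay below every WT library. Of the 54 pairs of gene and measure, this was the only one without overlap. Among all genes tested, 3.53% had no overlap in UTE (2.3% with KO lower). In the other measures the share was 4.09% in NTI, 3.87% in NTE, 0.489% in NAE, 2.76% in CTE and 1.09% in CAE. A lack of overlap was thus not particular to Rxrb. Rxrb had log2 fold changes of -0.48 ± 0.06 in UTE (adjusted p = 2.8e-06), -0.54 ± 0.09 in NTE (adjusted p = 4.25e-05) and -0.27 ± 0.10 in NTI (adjusted p = 0.0251). In CAE the value was -0.06 (adjusted p = 0.684), and scaling by library size alone turned it to 0.30 (adjusted p = 0.0515).

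Nr1h3 (chr2:91184061-91202834, minus strand), the oxysterol receptor that drives cholesterol efflux and lipogenic genes, was lower in KO in CTE, CAE, NTE and UTE. In NAE its log2 fold change was -0.05 and did not pass the test (adjusted p = 0.787). In CTE it was at 60.3 to 86.9 CPM in KO (median 73.9) and 75.2 to 125.7 CPM in WT (median 97.6). The ranges met between 75.2 and 86.9 CPM. Log2 fold changes were -0.44 ± 0.07 in CTE (adjusted p = 1.85e-05), -0.48 ± 0.11 in CAE (adjusted p = 0.00156), -0.46 ± 0.11 in NTE (adjusted p = 0.00196) and -0.32 ± 0.06 in UTE (adjusted p = 0.000126). With library size scaling the CAE value was -0.13 (adjusted p = 0.456). Its pre-mRNA gave 0.28 (adjusted p = 0.126), which turned to -0.06 with factors from pre-mRNA. Gm13783, a gene model on the same strand, overlaps Nr1h3.

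Nr1h4 (chr10:89454234-89533585, minus strand) encodes the bile acid sensor. Its pre-mRNA was at 4888 to 9204 CPM in KO (median 6717) and 2917 to 6385 CPM in WT (median 4085). The ranges overlapped between 4888 and 6385 CPM. This made a log2 fold change of 0.72 ± 0.14 (adjusted p = 0.000328), and of 0.37 (adjusted p = 0.0166) with factors from pre-mRNA counts. The mRNA differed by 0.33 ± 0.11 in NTE (adjusted p = 0.0153, and 0.21 with adjusted p = 0.0929 under library size scaling), 0.19 in NAE (adjusted p = 0.239) and 0.09 in CAE, neither of which passed the test. In CAE it passed under library size scaling (0.45, adjusted p = 0.00287).

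Nr1i2 (chr16:38248323-38294824, minus strand), the receptor that senses drugs and other foreign compounds and induces Cyp3a genes, was higher in KO in NTI, NTE, NAE, CTE and CAE. In NAE it was at 254 to 516 CPM in KO (median 359) and 166 to 487 CPM in WT (median 242). The WT livers within the KO range were those of ZT8 and 3 livers of ZT12 to ZT20, with the highest WT value in ZT12 replicate 1. Nr1i2 differed by 0.56 ± 0.14 log2 units in NAE (adjusted p = 0.00829), 0.76 ± 0.17 in NTI (adjusted p = 0.00108) and 0.32 ± 0.08 in CAE (adjusted p = 0.00403). In UTE it was 0.13 (adjusted p = 0.0996).

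Nr1i3 (chr1:171213970-171220701, plus strand) encodes CAR, the receptor that induces Cyp2b genes in response to xenobiotics. The 250 bases before its annotated start are shown because they hold the E-box CACGTG, the element bound by the clock activators that cryptochromes repress. The match is in capitals, 244 to 239 bases before the start, in the RefSeq window of GRCm38.p6 at chr1:171213720-171213969 on the plus strand.
Nr1i3 upstream window: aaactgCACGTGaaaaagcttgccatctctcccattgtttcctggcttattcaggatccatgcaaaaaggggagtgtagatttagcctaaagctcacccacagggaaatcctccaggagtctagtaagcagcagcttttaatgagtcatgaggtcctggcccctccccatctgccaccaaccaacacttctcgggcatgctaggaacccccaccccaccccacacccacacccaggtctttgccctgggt
The letters CACGTG (palindromic, so the same on both strands) were found in 2 of 12 windows of the 9 genes, counting 250 bases before to 50 after each start, and in 7.15% of 32851 windows. The other window was that of Nr0b2. TAGGTCA, TTACGTAA and the direct repeats DR1 and DR4 of AGGTCA (spaced by 1 and 4 bases), searched on both strands, had no match in the 12 windows and were found in 2.61%, 0.119%, 0.0396% and 0.0152% of all windows.

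Nr1i3 had the largest positive fold change of the 9 genes in every measure. In NAE it was at 2971 to 8420 CPM in KO (median 4685) and 805 to 5889 CPM in WT (median 1595). Of the WT libraries, 10 of 12 lay below all KO libraries, and the overlap rested on WT ZT8 replicate 2 (4108 CPM) and WT ZT12 replicate 1 (5889 CPM), while the other livers of these times held 2528 and 1532 CPM. In CAE it was at 77.8 to 202.5 CPM in KO (median 126) and 34.5 to 96.8 CPM in WT (median 59.1). Of the KO libraries, 10 of 12 lay above all WT libraries. Log2 fold changes were 1.43 ± 0.23 in NAE (adjusted p = 0.000311), 1.10 ± 0.13 in CAE (adjusted p = 4.43e-06) and 1.14 ± 0.14 in CTE (adjusted p = 1.87e-06). Its pre-mRNA was at 994 to 3905 CPM in KO (median 1723) and 136 to 1485 CPM in WT (median 455). The difference was 1.85 ± 0.33 log2 units in NTI (adjusted p = 0.000133), 1.23 ± 0.21 in NTE (adjusted p = 6.65e-05) and 1.03 ± 0.18 in UTE (adjusted p = 9.47e-05). Tomm40l, on the opposite strand, overlaps Nr1i3. Tomm40l was higher in KO in NTI (1.06) and lower in NTE (-0.94), NAE (-0.93), CTE (-1.775), CAE (-1.95) and UTE (-1.18). The libraries were counted by strand, and assignment of reads between Nr1i3 and Tomm40l was not tested.

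**Figure D2:**
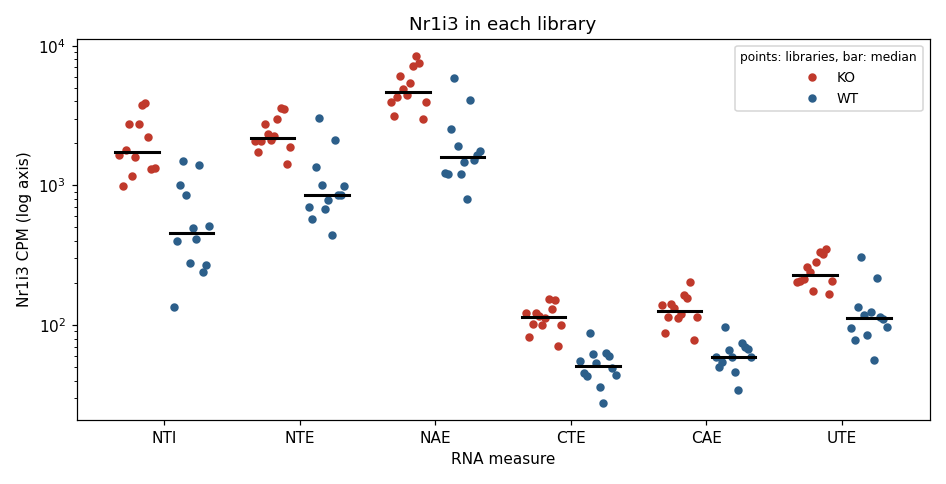
Nr1i3 level in each of the 12 KO and 12 WT libraries of the 6 RNA measures (CPM, log axis), with a bar at the median. Median levels are 4685 CPM in KO and 1595 CPM in WT in NAE, and 126 CPM in KO and 59.1 CPM in WT in CAE.

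Nr0b2 (chr4:133553376-133556536, plus strand) encodes SHP, the repressor that FXR induces in bile acid feedback. Its window is shown for the same E-box, in capitals, 195 to 190 bases before the start, at chr4:133553126-133553375 on the plus strand of GRCm38.p6 (RefSeq).
Nr0b2 upstream window: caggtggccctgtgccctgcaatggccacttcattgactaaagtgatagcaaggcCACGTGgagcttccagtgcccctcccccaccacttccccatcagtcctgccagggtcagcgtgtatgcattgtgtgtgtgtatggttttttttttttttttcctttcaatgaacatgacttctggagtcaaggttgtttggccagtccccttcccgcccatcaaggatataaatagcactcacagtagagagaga
In NTE Nr0b2 was at 1.36 to 18.8 CPM in KO (median 5.10) and 5.35 to 45.03 CPM in WT (median 25.0). Apart from KO ZT16 replicate 2 (18.8 CPM) and WT ZT16 replicate 2 (5.35 CPM), the groups did not overlap. The log2 fold change was -2.11 ± 0.38 (adjusted p = 0.000146). No other measure passed the test, with 0.68 in NTI (adjusted p = 0.108), -0.21 in NAE (adjusted p = 0.859), 0.64 in CAE (adjusted p = 0.195) and -0.40 in UTE (adjusted p = 0.28), although CAE did under library size scaling (1.01, adjusted p = 0.0322). In nuclear total RNA the share of Nr0b2 counts assigned to pre-mRNA was 87.7 to 98.7% in KO (median 95.9%) and 65.5 to 80.7% in WT (median 74%), without overlap. It was the only one of the 9 genes without overlap in this share, against 2.52% of all genes (2.44% with KO higher). In NA the median share was 97.3% in KO and 96.6% in WT. Over all genes the median share in nuclear total RNA was 79.9% in KO and 76% in WT. These shares are given as a description.

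Rhythms over the day were then compared by fitting a cosine with a period of 24 h. Ppard was the gene with the clearest rhythm in WT, high around the end of the night and the start of the day, and it had no counterpart of that size in KO. In UTE the KO livers held 7.14 and 8.16 CPM at ZT0, 6.69 and 6.54 at ZT4, 6.25 and 6.05 at ZT8, 6.27 and 6.61 at ZT12, 9.25 and 8.50 at ZT16, and 8.42 and 7.69 at ZT20. The WT livers held 65.2 and 73.7 CPM at ZT0, 21 and 22.4 at ZT4, 8.64 and 7.33 at ZT8, 9.84 and 11 at ZT12, 12.9 and 16.4 at ZT16, and 44.1 and 34.2 at ZT20. Replicates of a time lay close together, and the WT values of every time but ZT8 were above all KO values. The fitted range from trough to peak was 0.50 log2 units in KO and 2.95 in WT with a WT peak at ZT22.7, and the difference in rhythm had an adjusted p of 5.92e-05. In NAE the fitted range was 0.75 in KO and 3.16 in WT with a WT peak at ZT21.9 (adjusted p for the difference = 0.00514). In CAE it was 0.12 in KO and 2.23 in WT (adjusted p = 0.284). There WT ZT0 replicate 2 held 1.5 CPM and replicate 1 held 8.17 CPM, and WT ZT4 replicate 2 held 6.93 CPM and replicate 1 held 2.74 CPM. Without WT ZT0 replicate 2 the difference in rhythm passed (adjusted p = 0.0385). No other single liver left out changed this call.

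**Figure D3:**
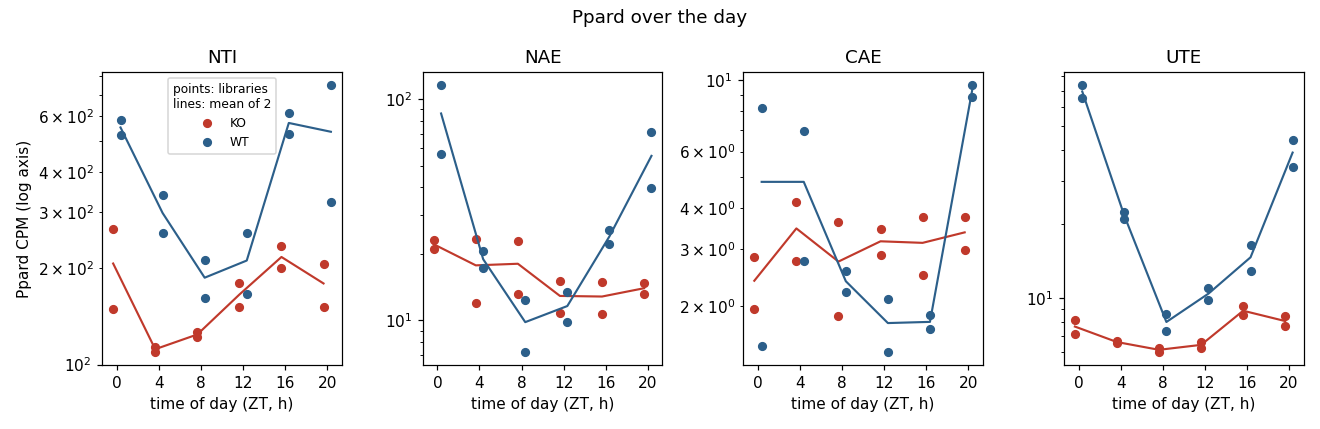
Ppard level (CPM, log axis with its own scale in each panel) against time of day (ZT, h) in NTI, NAE, CAE and UTE; points are single KO and WT libraries and lines join the mean of 2. In UTE the WT mean is highest at ZT0 and the KO points stay between 6.05 and 9.25 CPM; in CAE the low WT point at ZT0 is replicate 2 (1.5 CPM).

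In KO edgeR called 0 of 9 genes rhythmic at an adjusted p of 0.05 in NTI, NAE, CAE and UTE, against 0.027%, 0.0169%, 0% and 0.0512% of all genes, with 1, 2, 1 and 2 genes at an unadjusted p under 0.05 and 0 called by DESeq2. In WT UTE 2 of 9 were rhythmic, against 10.6% of all genes tested: Ppard (range 2.96, adjusted p = 0.000321) and Rxra (range 0.59, peak at ZT9.54, adjusted p = 0.0399). Rxra was at 407 and 453 CPM at ZT0 and 696 and 637 CPM at ZT8 in WT. Leaving out single WT libraries ended its call in 9 of 12 cases, as did liver numbers as a block (adjusted p = 0.0572). In WT NAE Ppard alone passed (range 3.16, peak at ZT21.95, adjusted p = 0.00253), against 2.28% of all genes. In WT NTI and WT CAE edgeR called 0 of 9, against 0.563% and 2.91%, with 3 and 4 genes at an unadjusted p under 0.05, and 1 and 2 called by DESeq2. Ppard had a range of 1.82 in WT NTI (adjusted p = 0.0732) and of 2.22 in WT CAE (adjusted p = 0.117), and without WT ZT0 replicate 2 the range in CAE was 2.71 (adjusted p = 0.0176). The rhythm differed between KO and WT for 1 of 9 genes in NAE (0.7% of all genes) and 1 of 9 in UTE (1.89%), Ppard both times. It did so for 0 of 9 in NTI (0.359%, 1 gene at an unadjusted p under 0.05, 0 by DESeq2) and 0 of 9 in CAE (0.698%, 2 genes at an unadjusted p under 0.05, 1 by DESeq2).

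Nr1i3, the most abundant nuclear transcript of the group, was next in the size of its WT rhythm in NAE. Its UTE level in KO livers was 203 and 283 CPM at ZT0, 208 and 334 at ZT4, 213 and 322 at ZT8, 261 and 349 at ZT12, 241 and 168 at ZT16, and 177 and 208 at ZT20. In WT livers it was 95.3 and 123.5 CPM at ZT0, 78.3 and 56.5 at ZT4, 134 and 216 at ZT8, 307 and 113.8 at ZT12, 117.1 and 110.7 at ZT16, and 85.4 and 96.6 at ZT20. Both KO livers lay above both WT livers at every time but ZT8 and ZT12, and WT ZT12 replicate 1 was the highest WT liver. In NAE its fitted range was 0.71 log2 units in KO and 1.63 in WT with a WT peak at ZT11.4. The WT rhythm did not pass by edgeR (adjusted p = 0.166) and did by DESeq2 (adjusted p = 0.0214), and the difference in rhythm did not pass by edgeR (adjusted p = 0.673).

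The share of a gene's polyadenylated nuclear counts that were assigned to pre-mRNA separated the 9 genes, as a description. Nr1i3 and Rxra had low shares. Nr1i3 had 12 to 22.5% in KO (median 19.6%) and 6.27 to 26.4% in WT (median 13.6%), and Rxra had 9.37 to 29.9% in KO (median 18.3%) and 14.5 to 34.8% in WT (median 21.5%). Nr1h4 had a high share, with 74.7 to 80.7% in KO (median 76.7%) and 63.7 to 81.9% in WT (median 77%). The genotypes overlapped for each of these genes. The median over all genes was 41.7% in KO and 40.9% in WT. These are shares of counts and not of molecules, and the genes differ in length. Nr1i3 spans 6732 bases, Nr1h4 79352 and Rxra 86518, and the part of length in the shares was not tested. The mRNA counts of Nr1i3 include Nr1i3-207, a transcript annotated with retained introns.

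The nuclear level was then set against the cytoplasmic level of polyadenylated mRNA in livers of the same number. The per-liver ratios use these numbers, while the fitted tests took all libraries as separate, without a liver block or time of day. Nr1i3 was the most nuclear of the 9 genes in both genotypes, and Rxra, Nr1h3 and Nr0b2 were relatively more abundant in the cytoplasm. All 9 genes differed between NAE and CAE at an adjusted p of 0.01 in both genotypes (6 higher and 3 lower in the nucleus), as did 82.3% of all genes in KO (42.9% higher, 39.5% lower) and 79.6% in WT (42.8% higher, 36.8% lower). A difference over 2 log2 units was found for 2 genes in KO, against 28% of all genes, and 3 genes in WT, against 29.5%. The scaling sets the typical gene near 0, so these are relative values and not molecules per cell. Scaling by library size alone gave Rxra -0.12 in KO and 0.70 in WT, and Nr1h3 0.12 in KO and 0.04 in WT, so the direction of these genes holds only relative to the typical gene. With that scaling Nr0b2 did not pass in WT (-0.91, adjusted p = 0.0571). Leaving out single WT livers ended the call of Rxra in WT in 6 of 12 cases (adjusted p up to 0.0223). The log2 ratio of NAE over CAE of Nr1i3 was 3.78 to 4.66 in KO (median 4.18) and 3.32 to 4.86 in WT (median 3.70). Every liver lay above 3 log2 units, and the groups overlapped. The fitted value was 4.25 ± 0.20 in KO and 4.10 ± 0.29 in WT. Ppara (1.11 ± 0.19 in KO, 1.59 ± 0.27 in WT) and Nr1i2 (1.45 in KO, 1.30 in WT) were nuclear to a lesser degree. Ppard was at 1.34 in KO and 2.07 ± 0.46 in WT, and at 1.63 in WT without WT ZT0 replicate 2.

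Of the genes lower in the nucleus, Nr0b2 had fitted values of -2.70 in KO and -2.06 in WT, from NAE levels of 0.11 to 25.7 CPM in KO and 0.35 to 13 CPM in WT. Nr1h3 was at -1.11 to -0.35 log2 units in KO livers (median -0.75) and -1.80 to -0.72 in WT livers (median -1.10). Most WT livers lay lower than most KO livers, with overlap, and the difference between genotypes had a log2 value of 0.38 (adjusted p = 0.0863, and 0.0395 with liver numbers as a block). Rxra was at -1.64 to -0.28 in KO livers (median -1.06) and -1.22 to 0.36 in WT livers (median -0.49). No KO liver and 3 of 12 WT livers lay above 0. By edgeR, Rxra was the only one of the 9 whose ratio differed between KO and WT, with a log2 difference of -0.53 ± 0.17 (adjusted p = 0.0451), where 7.66% of all genes passed (3.4% higher, 4.26% lower in KO). Without WT ZT0 replicate 2 this was -0.48 (adjusted p = 0.0542), and leaving out single livers ended the call in 18 of 24 cases. DESeq2 did not call Rxra (-0.47, adjusted p = 0.0502) and called Nr1h3 in its place (0.44, adjusted p = 0.0368).

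**Figure D4:**
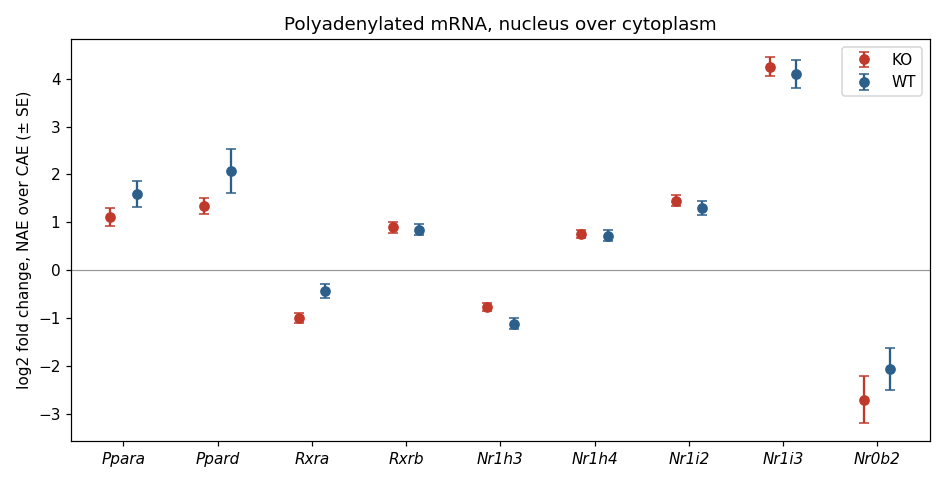
Log2 fold change of NAE over CAE (vertical axis, ± SE) in KO and WT for the 9 genes, each from 12 nuclear and 12 cytoplasmic libraries. Nr1i3 is highest, at 4.25 in KO and 4.10 in WT, and Rxra, Nr1h3 and Nr0b2 lie below 0 in both genotypes.

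The transcripts of Nr1i3 differed between the compartments. Nr1i3-207 is annotated as a retained-intron transcript: its last exon (chr1:171217076-171219193, 2118 bases) runs over introns 6, 7 and 8 of the coding transcript Nr1i3-201. The shortest of these introns, numbers 6 (chr1:171217222-171217313) and 7 (chr1:171217431-171217625), are shown because their presence is what tells Nr1i3-207 from the coding transcripts. Capitals mark the GT and AG splice sites, read 5′ to 3′ on the plus strand from the reference transcript.
Nr1i3 intron 6: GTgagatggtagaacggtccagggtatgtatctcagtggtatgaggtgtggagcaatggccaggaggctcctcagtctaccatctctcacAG
Nr1i3 intron 7: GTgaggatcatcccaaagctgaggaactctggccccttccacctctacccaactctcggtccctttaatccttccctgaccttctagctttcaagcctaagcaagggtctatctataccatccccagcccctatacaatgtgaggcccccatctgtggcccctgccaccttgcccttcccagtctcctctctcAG
Nr1i3-207 took 48.3 to 53.6% of Nr1i3 mRNA counts in KO NAE (mean 50.0%) and 40.8 to 56.5% in WT NAE (mean 49.8%). In CAE its mean share was 10% in KO and 10.6% in WT, and in UTE 32.3% in KO and 29.1% in WT. The coding transcript Nr1i3-208 took 44.5% in KO and 42.1% in WT in NAE, and 53% in KO and 41.1% in WT in CAE. Nr1i3-201, the full coding transcript, took 0.05% in KO and 0.07% in WT in NAE, and 16.4% in KO and 23.5% in WT in CAE.

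**Figure D5:**
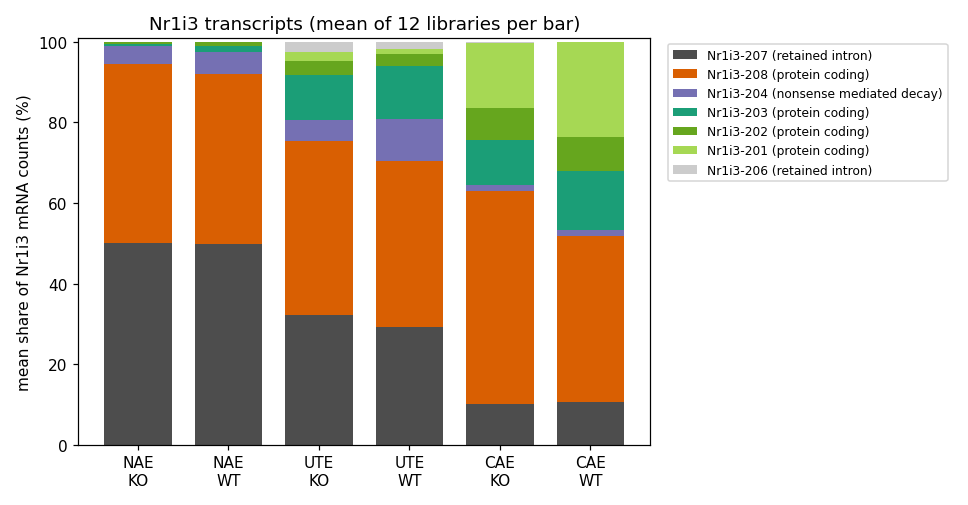
Mean share of each Nr1i3 transcript in Nr1i3 mRNA counts (percent, 12 libraries per bar) in NAE, UTE and CAE of KO and WT livers. The retained-intron transcript Nr1i3-207 takes 50.0% in KO and 49.8% in WT in NAE, and 10% in KO and 10.6% in WT in CAE.

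Transcript shares were tested between NAE and CAE in WT, for the 14 transcripts of the 9 genes that passed the count filter. Of these, 9 differed at an adjusted p of 0.05, against 47.3% of all transcripts tested. For Nr1i3, the share was higher in the nucleus for Nr1i3-207 (log2 change 2.16, adjusted p = 4.25e-08) and the nonsense-mediated decay transcript Nr1i3-204 (1.39, adjusted p = 0.00166). It was lower for the coding transcripts Nr1i3-201 (-8.63, adjusted p = 4.79e-22), Nr1i3-202 (-3.51, adjusted p = 4.87e-08) and Nr1i3-203 (-3.52, adjusted p = 2.3e-10). Nr1h3-203 was also higher in the nucleus (3.26, adjusted p = 3.52e-08), and Nr1h3-202 (-1.32), Ppara-205 (-8.32) and Nr1h4-201 (-0.61, adjusted p = 0.0353) were lower. The call of Nr1h4-201 was lost in 5 of 12 cases when single livers were left out (adjusted p up to 0.0646). Between KO and WT in CAE, 1 of 15 transcripts differed, Nr1h3-203 (2.40, adjusted p = 0.0169), against 1.61% of all transcripts. That call was lost without WT ZT0 replicate 2 (adjusted p = 0.0552) and with 5 other single libraries left out, and with liver numbers as a block (adjusted p = 0.192). None of the 6 tested Nr1i3 transcripts passed between KO and WT. The counts of a transcript are estimates over shared sequence, an error the test does not see, and retained-intron transcripts share reads with pre-mRNA.

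In UTE, which was not tested by transcript, Rxrb-207 took a mean of 13.4% of Rxrb mRNA counts in KO and 42.5% in WT, and Rxrb-202 took 72.5% in KO and 38.2% in WT. The level of Rxrb-207 was 2.63 ± 2.06 CPM in KO and 11.7 ± 4.17 CPM in WT, and that of Rxrb-202 was 14.7 ± 2.38 CPM in KO and 10.9 ± 3.97 CPM in WT (SD, n = 12 each). Shares did not overlap between KO and WT for 4 of 21 transcripts of the 9 genes (2 higher and 2 lower in KO), against 6.53% of all transcripts (3.01% higher, 3.52% lower). These were Ppara-202 and Rxra-201, higher in KO, and Ppara-201 and Nr1i3-204, lower in KO. Ppara-201 and Ppara-202 are shares of the same gene, so their differences are not independent. Ppara-201 took 17.1 to 25.1% in KO and 26.1 to 35.4% in WT. Nr1i3-204 took 2.52 to 7.24% in KO and 7.41 to 14.8% in WT. Ppara-202 took a mean of 77.3% in KO and 68% in WT, and Rxra-201 99.8% in KO and 96.9% in WT.

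Lists of genes that the receptors are known to regulate were read in CAE for KO over WT, beside the 36% of all genes that passed (17.2% higher, 18.8% lower) and their median of 0.01. Of 32 listed targets of the PPARs, 29 were tested, 14 were higher and 1 lower, with a median log2 fold change of 0.39. Cyp4a14 (5.63) and Cyp4a10 (4.62), which encode fatty acid ω-hydroxylases, changed most, ahead of the acyl-CoA thioesterase genes Acot1 (1.75) and Acot2 (1.33). Of 22 listed targets of PXR and CAR, 17 were tested, 11 were higher and 1 lower, with a median of 0.57. Abcb1a (2.82), a drug efflux pump gene, Gsta2 (2.36), a glutathione transferase gene, and Cyp3a11 (1.73), a drug-metabolising P450 gene, were higher, and Cyp2c55 (-1.70) was lower. The same list gave 4 higher and 1 lower of 18 in NAE and 9 higher and 1 lower of 18 in UTE. The list of PPAR targets gave 6 higher and 1 lower of 30 in NAE and 14 higher and 1 lower of 30 in UTE.

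The other lists are given in CAE, NAE and UTE. In UTE 22.6% of all genes were higher and 26.2% lower, and in NAE 8.03% and 9.11%. The targets of LXR gave 3 higher and 0 lower of 11 in CAE (median 0.17), among them Pltp (1.05), a phospholipid transfer protein gene. In NAE edgeR called 0 of these 11 (median 0.14, 1 gene at an unadjusted p under 0.05), and in UTE 1 was higher and 2 lower (median 0.03). The targets of FXR and SHP gave 2 higher and 2 lower of 10 tested in CAE (median 0.24), 1 higher and 1 lower in NAE, and 3 higher and 2 lower in UTE (median 0.02). Cyp8b1 (1.99) and Cyp7a1 (0.59), both bile acid synthesis genes, were higher in CAE, and Slc51b (-1.04), a bile acid exporter gene, and Cyp7b1 (-0.70) were lower. Of 14 coregulators, 7 were higher and 0 lower in CAE (median 0.34), led by the coactivator genes Ppargc1b (1.01) and Ppargc1a (0.79). In NAE 2 of them were higher and 1 lower, and in UTE 3 were higher and 2 lower (median 0.02). Of 9 other RXR partners, 0 were higher and 1 lower in CAE, Pparg (-2.27). In NAE 2 of the partners were higher and 1 lower, and in UTE 1 was higher and 5 lower (median -0.37). In NTE 0 were higher and 5 lower (median -0.47), against 24.2% and 24% of all genes. In NTI 1 was higher and 2 lower (median 0.04), against 48.8% and 3.65% of all genes. In CTE 1 was higher and 2 lower (median -0.11), against 18.9% and 20.9%.

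Of all genes, 17.2% were higher and 18.8% lower in CAE, 18.9% and 20.9% in CTE, and 22.6% and 26.2% in UTE. Of 8 hepatocyte markers, 3 were higher and 0 lower in CAE, among them Alb (0.66) and Tat (0.90). In CTE 4 of them were higher and 2 lower, and in UTE 1 was higher and 2 lower. Of 7 macrophage markers 3 were lower in CAE and 2 in CTE, and 1 was higher in UTE. Of 6 stellate markers 2 were lower in CAE and 5 in CTE (median -0.70), and 1 was higher and 1 lower in UTE. Of 2 cholangiocyte markers in CAE both were lower, Spp1 (-1.31) and Sox9 (-1.14). In CTE 2 of 2 were lower, and in UTE 1 of 3. Of 7 endothelial markers 1 was higher and 1 lower in CAE, and 0 were higher and 1 lower in CTE. In UTE 6 of them were higher and 0 lower, with sums of 399 to 506 CPM in KO and 243 to 414 CPM in WT. No marker in the tables was at 0 in all libraries. Their part in the receptor results was not tested.

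The genes whose UTE levels followed each receptor most closely over the 24 libraries are given as a description. These libraries share the genotype difference and the time of day, both of which enter the correlation of log2 CPM. Among the 3 genes most like Ppard were Grk5 (r = 0.93) and Nid2 (0.90). Nr1i3 was most like Acot4 (0.90), Hlf (0.90) and Mmd (0.90). Rxrb was most like Ppp1r37 (0.93), Nr1h3 most like Aars (0.93), Nr1i2 most like Il6ra (0.88), Rxra most like Tmco4 (0.85) and Ppara most like Vwa8 (0.85). Nr1h4 was most like Ppara, another of the 9 genes (0.79), and Nr0b2 had the lowest leading value, with Depp1 (0.73).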

How the data were processed

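Mouse liver RNA of 120 libraries was quantified by the authors with kallisto 0.46.0 from single-end, stranded reads of 65 nucleotides against an index of mouse pre-mRNA and mRNA sequences (GRCm38, Ensembl) and of rat sequences, since rat liver RNA had been added to the nuclear and cytoplasmic RNA, and the deposited values are estimated counts per transcript and gene after removal of minor isoforms. The 12383 deposited gene rows were reduced to 12252 by merging 131 repeated rows, and 31 gene symbols kept several rows. Here, counts were rounded, a gene was kept in a fit when 12 of 24 libraries (or 6 of 12, or 24 of 48) reached 10 counts, and TMM factors came from mRNA counts. Tests were edgeR 4.0.16 quasi-likelihood F tests (R 4.3.3) with Benjamini-Hochberg adjustment over all genes tested: genotype with time as a factor, a 24 h cosine and sine, their product with genotype, compartment, and compartment by genotype. Transcript shares were tested with diffSpliceDGE. SE is the log2 fold change over the root of F. The scripts were tested on simulated data.

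Groups came from the labels, and 0 per-sample columns stayed unmapped. Alternatives were DESeq2 1.42.0, library size scaling, no count filter, TMM from pre-mRNA, liver numbers as a block and leaving out each liver. Same-number deviations of NAE and CAE correlated by -0.23 to 0.563 in KO and 0.231 to 0.577 in WT, with the lowest value at KO ZT0. Ratios per liver were formed between libraries of the same number. The main fits of NAE against CAE and of their ratio used no liver block and no time term. KO and WT were not paired. The threshold of 0.01 between NAE and CAE follows the study. Named genes were the 9 members, Cry1, Cry2 and Nr1d1, overlapping genes, the 3 genes most correlated with a member in UTE, and at most 4 genes per list with the largest called change in CAE. Tomm40l, Gm13783, the lack of overlap and the UTE transcript shares were chosen after values were seen. The members and lists were chosen with earlier results of these data known. RefSeq gave the upstream windows and GENCODE transcripts the introns. A genome sequence was not used here. Some genes that the rule names are not reported here. The depth of 7.07 to 62.5 M counts per library limits the lowest genes, Nr0b2 in NAE and Ppard in CAE, most.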

Additional observations from a re-analysis of the deposited data

Results flagged for a closer look

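The rhythm of Ppard differed between KO and WT in a direct test of the difference. In NAE the fitted range was 0.75 log2 units in KO and 3.16 in WT (adjusted p = 0.00514), and in UTE it was 0.50 in KO and 2.95 in WT (adjusted p = 5.92e-05). The ratio of nuclear to cytoplasmic polyadenylated mRNA of Rxra narrowly passed the test between genotypes by edgeR (adjusted p for the difference = 0.0451). It was at -1.0 ± 0.10 in KO and -0.44 ± 0.14 in WT on the log2 scale (SE). Leaving out single livers ended this call in 18 of 24 cases, and DESeq2 did not make it (adjusted p = 0.0502). With library size scaling NAE over CAE of Rxra was -0.12 in KO and 0.70 in WT.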

How the results depend on the processing

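Direction and side of the threshold were kept by 217 of 218 results without the count filter, 215 of 218 with liver numbers as a replicate block, 178 of 189 with DESeq2, 173 of 189 with library size scaling, 32 of 36 with TMM from pre-mRNA, and 3901 of 3984 when a liver was left out. The cause of the changes was not tested. The number of the 9 genes rhythmic in WT was 1 in NTI (DESeq2, and TMM from pre-mRNA), 2 in NAE, 2 in CAE and 4 in UTE with DESeq2, and 1 in UTE with the block. Rhythm differences numbered 1 in CAE and 3 in UTE with DESeq2. The ratio of NAE to CAE differed between genotypes for 2 genes with the block, where Rxra stayed called. Transcripts with another share between NAE and CAE numbered 16 without the filter, and between KO and WT 0 with the block. The block changed no other call.

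With single livers left out, the called genes ranged from 6 to 7 in NTI and 4 to 6 in UTE between KO and WT and from 8 to 9 between NAE and CAE in WT. Rhythmic genes in WT ranged from 0 to 1 in NTI, 0 to 1 in CAE and 1 to 2 in UTE, rhythm differences from 0 to 1 in CAE, ratios from 0 to 1, and transcripts from 8 to 11 between compartments and 0 to 1 between genotypes. Of the libraries that stand apart, leaving out WT ZT4 replicate 1 ended the call of the Rxra ratio (adjusted p = 0.0545) and brought in the share of Ppara-201 between compartments (adjusted p = 0.0295). Leaving out WT ZT0 replicate 2 changed the calls named in the report and brought in Ppara-201 (adjusted p = 0.0495). In UTE, leaving out KO ZT20 replicate 1 brought in Rxra between KO and WT (-0.17, adjusted p = 0.0475).

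Directions turned for the following values that were not called. Library size scaling turned the KO over WT values of Nr1h4 in CTE (0.06), Ppard in CAE (0.16) and Rxrb in CAE (0.30), the ratio differences of Rxrb (-0.24), Nr1h4 (-0.26), Nr1i2 (-0.12) and Nr1i3 (-0.15), and, among called values, NAE over CAE of Rxra in WT (0.70) and of Nr1h3 in KO (0.12) and WT (0.04). TMM from pre-mRNA turned Nr1h3 in NTI (-0.06). Leaving out single livers gave ranges across 0 in NAE for Rxra (-0.03 to 0.05), Rxrb (0.00 to 0.10) and Nr0b2 (-0.70 to 0.14), in CTE for Nr0b2 (-0.05 to 0.29), in CAE for Ppard (-0.29 to 0.04) and Rxrb (-0.13 to 0.00), and for the shares of Nr1i3-208 between compartments (-0.01 to 0.07) and of Nr1i3-202 (-0.16 to 0.07) and Nr1i3-204 (-0.40 to 0.20) between genotypes.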
